A study of Homo sapiens with 8 samples.

Results

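The genes described here are 10 regulators of apoptosis from the BCL2 family, picked by symbol from the 23459 genes of a count table. They are the anti-apoptotic genes BCL2, BCL2L1 (BCL-XL), BCL2L2 (BCL-w) and MCL1, the pore-forming gene BAK1, and the BH3-only genes BCL2L11 (BIM), BID, BAD, BIK and BMF. All 10 had enough counts to be tested. Total RNA came from Hct116, a colorectal carcinoma line of human origin. Of 8 libraries, 4 are from cells given lenalidomide at 30 μM and 4 from cells given the solvent DMSO, both collected at 16 h. The labels give DMEM with foetal bovine serum as the medium of both groups. By the study's methods the serum was dialysed, the drug or solvent was added together with a change to medium with amino acids of another isotope label, and the harvested cells were divided between protein and RNA measurement. In 2 of the 4 replicates of a group the direction of this label change was swapped, and which libraries these are is not given in the sources used here. Lenalidomide is a thalidomide derivative that binds CRBN, the substrate receptor of a ubiquitin ligase, and changes which proteins the ligase marks for degradation. The comparison asks whether the drug moved RNA levels as well.

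BCL2 family proteins decide whether the outer membrane of mitochondria stays intact. BAK1 and its relative BAX form the pores through which cytochrome c leaves the mitochondria, the anti-apoptotic proteins hold them in check, and the BH3-only proteins relieve that check or activate the pore formers directly. Many of these proteins are also regulated after transcription, by phosphorylation, cleavage or degradation, which RNA counts do not show.

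What the 10 proteins share is the BH3 motif, through which pro-apoptotic members dock onto anti-apoptotic ones. The coding stretch of its core is shown because it ties genes of opposite roles to one family. Each stretch has 24 bases of the GRCh37 reference, read 5′ to 3′ on the coding strand of the canonical GENCODE transcript. Capitals mark the first codon, for leucine or methionine, and the fifth and sixth codons, for a small residue followed by aspartate.
BCL2: CTCcgccaggccGGCGACgacttc
BCL2L1: CTGagggaggcaGGCGACgagttt
BCL2L2: ATGcgggcagctGGAGATgagttc
MCL1: TTAcgacgggttGGGGATggcgtg
BAK1: CTCgccatcatcGGGGACgacatc
BCL2L11: TTGcggcgtattGGAGACgagttt
BID: CTCgcccaggtcGGGGACagcatg
BAD: CTCcggaggatgAGTGACgagttt
BIK: CTGgcctgcatcGGGGACgagatg
BMF: CTTcagtgcattGCAGACcagttc

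The search pattern was a leucine or methionine codon, any 3 codons, a glycine, alanine or serine codon, an aspartate codon, any codon, and a codon for phenylalanine, valine, isoleucine, methionine, leucine or glutamine. It was met once in each of the 10 coding sequences. Since it admits the methionine of BCL2L2, the serine of BAD and the alanine of BMF, a match in all 10 is no independent evidence. The pattern is loose, and 16.8% of 19420 human coding sequences hold it at least once. The sixth codon was GAC in 8 members and GAT in 2, BCL2L2 and MCL1. The fifth codon stood for glycine in 8, the exceptions being BAD (AGT) and BMF (GCA). BCL2L2 alone opened with ATG. No stretch is interrupted by an intron. Those of the anti-apoptotic genes lie at chr18:60985588-60985611 for BCL2, chr20:30309731-30309754 for BCL2L1, chr14:23777112-23777135 for BCL2L2 and chr1:150551347-150551370 for MCL1, and that of BAK1 at chr6:33543170-33543193. Those of the BH3-only genes lie at chr2:111907680-111907703 for BCL2L11, chr22:18222187-18222210 for BID, chr11:64039100-64039123 for BAD, chr22:43523722-43523745 for BIK and chr15:40396402-40396425 for BMF. BCL2L2, BCL2L11 and BIK are on the plus strand and the others on the minus strand.

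Library totals ran from 28218471 to 37473413 counts, and the largest lenalidomide library was smaller than the smallest DMSO library. Values within a gene are given as CPM, counts scaled to a common library size with TMM factors between 0.971 and 1.02, and levels compared between genes as CPM per kilobase of exonic width (RPKM). Of 7 markers of colon epithelial carcinoma cells, KRT8, KRT18, KRT19 and EPCAM were at 193 RPKM or more in every library, CDH1 and CDX2 were lower, and VIL1, a brush border protein, had at most 2 counts. The summed markers of blood cells, endothelium and fibroblasts reached at most 0.187, 0.103 and 0.689 RPKM. The series record calls the replicates biological, and the methods call those of the protein measurement technical. Since the labels do not say that they were separate cultures, p-values measure only the spread between these libraries, which may be technical.

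Of the 10 genes, 2 anti-apoptotic ones had by far the highest RNA levels in DMSO. BCL2L1 was at 60.4 ± 0.781 RPKM and MCL1 at 55.7 ± 0.777 RPKM (SD, n = 4), above 91.99% and 91.1% of the 13925 genes tested. BCL2, after which the family is named, was at 0.641 ± 0.0405 RPKM (SD, n = 4). Among the 6 pro-apoptotic genes of the 10, BID and BIK were highest, at 14.4 ± 0.524 and 11.2 ± 0.810 RPKM, while BAK1 was at 2.35 ± 0.215 RPKM and BMF at 0.146 ± 0.0348 RPKM (SD, n = 4).

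**Figure D1:**
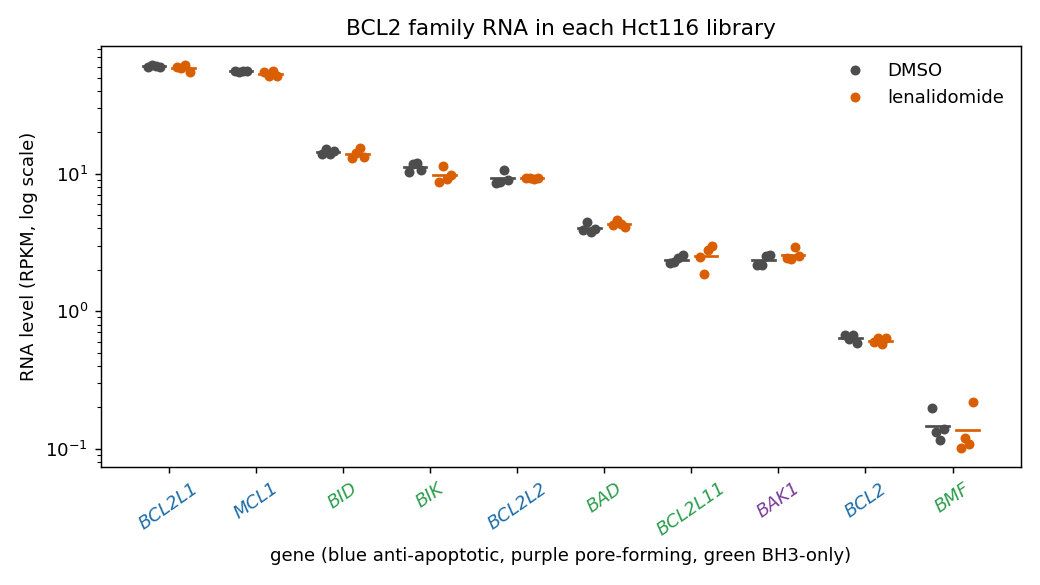
RNA level in RPKM on a log scale for the 10 genes, ordered by their DMSO mean, with single libraries as points (dark grey DMSO, orange lenalidomide, 4 each) and group means as lines. BCL2L1 and MCL1 lie above 50 RPKM in every library, BCL2 and BMF below 1 RPKM, and the values of both treatments overlap for every gene.

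BCL2L1 protects mitochondria by binding BAX, BAK1 and BH3-only proteins. Its CPM values were 163, 166, 165 and 162 in DMSO replicates 1 to 4 and 162, 159, 167 and 148 in lenalidomide replicates 1 to 4. Lenalidomide replicate 4 was the lowest of the 8 libraries and lenalidomide replicate 3 the highest, so the groups overlapped. BCL2L1 occupies positions 30252255 to 30311792 of chromosome 20 (GRCh37, minus strand), and 1735 bases of its exons are covered by ABALON, a long noncoding RNA gene on the opposite strand. The counting is not stated to use strand, so reads of such overlaps cannot be told apart. Overlaps here and below refer to all annotated GENCODE exons, which for BCL2L1 cover 4197 bases against a counted exonic width of 2716. Part of an overlap may thus lie outside the counted exons.

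MCL1 encodes a short-lived protector that binds BAK1 and BIM. The DMSO libraries had 229.7, 223, 228 and 229.6 CPM and the lenalidomide libraries 224, 211, 229 and 208 CPM. Lenalidomide replicates 2 and 4 were below every DMSO library, and replicates 1 and 3 lay within the DMSO range. The gene spans 150533371 to 150552214 on the minus strand of chromosome 1, with 43 exonic bases opposite ADAMTSL4 and 328 shared with the noncoding gene ADAMTSL4-AS1 on its own strand. Per length, MCL1 was at 0.922 ± 0.0239 times the level of BCL2L1 in DMSO and 0.910 ± 0.0226 times in lenalidomide (SD, n = 4). The RPKM ranges of these genes did not overlap in DMSO but did in lenalidomide.

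BCL2L2, another protector, had 31.6, 32.4, 39.6 and 33.6 CPM in DMSO and 34.3, 34.4, 34.1 and 34.3 CPM in lenalidomide. DMSO replicate 3 stood above the other 7 libraries, while the lenalidomide libraries were nearly equal. BCL2L2 spans 23767999 to 23780960 on the plus strand of chromosome 14. It shares 815 exonic bases with the readthrough gene BCL2L2-PABPN1, which runs on into PABPN1, a gene for a nuclear poly(A) binding protein, and 149 and 315 bases with HOMEZ and PPP1R3E on the opposite strand. The readthrough gene was listed at 51.01 ± 5.30 RPKM in DMSO (SD, n = 4), above BCL2L2 itself at 9.24 ± 0.978 RPKM, and PABPN1 at 37.5 ± 5.13 RPKM. In DMSO replicate 3 the readthrough gene, at 125 CPM, was also the highest of its group. It was higher still in lenalidomide replicate 2, at 128 CPM, where BCL2L2, at 34.4 CPM, did not stand apart. PABPN1 was the highest of each group in the same libraries, at 183 and 170 CPM. How reads of exons shared with the readthrough gene were counted is not given in the sources used here. The level of BCL2L2 is therefore uncertain.

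BCL2 had 4.66, 4.30, 4.62 and 4.07 CPM in DMSO and 4.12, 4.40, 3.95 and 4.37 CPM in lenalidomide. DMSO replicate 1 was highest, lenalidomide replicate 3 lowest, and the ranges overlapped. These levels rest on 126 to 174 counts per library and lay above 14.9% of the genes tested. BCL2 spans 60790579 to 60987361 on the minus strand of chromosome 18 with no exon of another gene over its own. It held 0.399% of the summed RPKM of the 10 genes in DMSO, against 37.7% for BCL2L1 and 34.7% for MCL1.

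BAK1, the pore former, had 5.06, 5.05, 5.87 and 5.97 CPM in DMSO and 5.71, 5.58, 6.78 and 5.86 CPM in lenalidomide. Lenalidomide replicate 3 was the highest library, and the other lenalidomide libraries lay within the DMSO range. BAK1 is at 33540324 to 33548070 on the minus strand of chromosome 6, with 91 exonic bases opposite GGNBP1. The annotation lists 2 pseudogenes of BAK1, BAK1P1 and BAK1P2, neither of which has an entry in the count table, and reads may be shared with them. Per length, BCL2L1 was at 25.8 ± 2.50 times the level of BAK1 in DMSO and 22.9 ± 1.73 times in lenalidomide (SD, n = 4).

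BID is the BH3-only protein that caspase-8 cleaves to pass death receptor signals to mitochondria. It had 38.6, 41.6, 38.5 and 40.05 CPM in DMSO and 35.9, 39.03, 42.1 and 36.4 CPM in lenalidomide. The lowest and the highest library were both from the lenalidomide group, replicates 1 and 3. BID spans 18216904 to 18257536 on the minus strand of chromosome 22.

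BIK encodes a BH3-only protein found mostly at the endoplasmic reticulum. It had 9.88, 11.3, 11.3 and 10.1 CPM in DMSO and 8.24, 10.8, 8.76 and 9.36 CPM in lenalidomide. Lenalidomide replicates 1, 3 and 4 were below every DMSO library and replicate 2 was not. BIK lies at 43506756 to 43525718 on the plus strand of chromosome 22. Its exonic width of 953 bases is the smallest of the 10 genes, so that 254 to 408 counts per library gave it a higher mean RPKM than BCL2L2 with 988 to 1356.

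BAD, whose protein is held inactive by phosphorylation and 14-3-3 proteins, had 6.40, 7.37, 6.22 and 6.49 CPM in DMSO and 7.01, 7.60, 7.15 and 6.69 CPM in lenalidomide. Replicate 2 was highest in both groups, and the ranges overlapped. Its position is 64037302 to 64052176 on the minus strand of chromosome 11, and 404 bases of its exons lie opposite GPR137.

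BCL2L11 encodes BIM, which binds all anti-apoptotic members and is known for its induction by FOXO factors. It had 13.9, 14.1, 15.1 and 15.9 CPM in DMSO and 15.4, 11.6, 17.3 and 18.4 CPM in lenalidomide. Lenalidomide replicate 2 was the lowest of the 8 libraries, and lenalidomide replicates 3 and 4 were above every DMSO library. BCL2L11 spans 111876955 to 111926021 on the plus strand of chromosome 2, with 727 exonic bases opposite MIR4435-2HG.

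BMF, a BH3-only protein that binds dynein light chain, had 35, 23, 19 and 25 counts in DMSO and 15, 19, 17 and 30 counts in lenalidomide. In CPM these were 0.937, 0.635, 0.555 and 0.660 and 0.486, 0.573, 0.517 and 1.04. A single library was highest in each group, replicate 1 of DMSO and replicate 4 of lenalidomide. BMF was above 3.90% of the genes tested. It lies at 40380091 to 40401093 on the minus strand of chromosome 15, and 461 exonic bases are opposite BMF-AS1.

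Ordered by mean RPKM in DMSO, the genes ran BCL2L1, MCL1, BID, BIK, BCL2L2, BAD, BCL2L11, BAK1, BCL2 and BMF. Of the 9 neighbouring pairs, 2 had ranges that overlapped, BIK with BCL2L2 and BCL2L11 with BAK1. The widest steps were from BCL2 to BMF, 4.39 times, and from MCL1 to BID, 3.87 times. In lenalidomide the order was the same except that BAK1 stood before BCL2L11, and 3 neighbouring pairs overlapped, BCL2L1 with MCL1 being added.

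Summed over the 10 genes, the level was 160.4 ± 1.86 RPKM in DMSO and 155 ± 5.64 RPKM in lenalidomide (SD, n = 4). The 4 anti-apoptotic genes held 79.2%, 77.7%, 78.7% and 78.5% of it in DMSO replicates 1 to 4 and 80.1%, 77.7%, 78.6% and 77.9% in lenalidomide replicates 1 to 4. The 5 BH3-only genes held 20.01 ± 0.672% and 19.8 ± 1.08%, and BAK1 1.47 ± 0.128% and 1.65 ± 0.114% (SD, n = 4). Anti-apoptotic RNA was thus at 3.66 ± 0.137 times the pro-apoptotic level in DMSO and 3.67 ± 0.245 times in lenalidomide (SD, n = 4), a difference smaller than the spread between libraries. The ratio adds RNA levels of genes whose proteins differ in stability and is no measure of protein. It covers the 10 genes alone and leaves out other genes of the family. Counts are per gene, so the 15 annotated transcripts of BCL2L1 and the 8 of MCL1 are not told apart. In bulk RNA, fewer cells with a transcript and less of it per cell cannot be told apart.

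**Figure D2:**
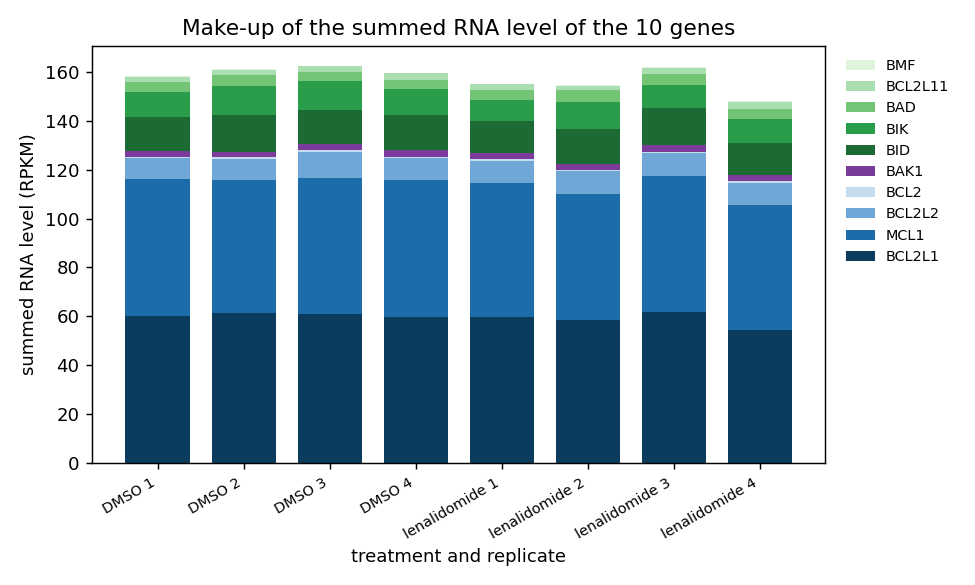
Summed RPKM of the 10 genes in each library, stacked by gene (blue shades anti-apoptotic, purple BAK1, green shades BH3-only), for replicates 1 to 4 of DMSO and of lenalidomide. BCL2L1 and MCL1 fill most of each bar, and the sums run from 148 RPKM in lenalidomide replicate 4 to 163 RPKM in DMSO replicate 3.

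The family's p53 targets, counted apart, are PMAIP1 (NOXA), a BH3-only protein that binds mainly MCL1, at 53.5 ± 2.93 RPKM in DMSO, BAX at 6.09 ± 1.08 RPKM and BBC3 (PUMA) at 4.39 ± 0.502 RPKM (SD, n = 4). MCL1 was at 1.04 ± 0.0705 times the level of PMAIP1 in DMSO (SD, n = 4). With these 3 on the pro-apoptotic side the ratio was 1.28 ± 0.0637 in DMSO and 1.31 ± 0.0631 in lenalidomide (SD, n = 4).

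How far libraries of one group differed depended on the gene. The coefficient of variation (CV) of CPM over the DMSO libraries was 1.29% for BCL2L1 and 1.40% for MCL1, near the 1.35% and 1.15% that counting alone gives at their mean counts. In lenalidomide it was 5.07% and 4.60%. BCL2L11 had 6.18% in DMSO and 18.9% in lenalidomide, against 4.41% from counting. For BMF these values were 23.9%, 39.7% and 20.9%. BCL2L2 had the wider spread in DMSO, 10.6%, and 0.403% in lenalidomide, the latter below the 2.93% from counting. Whether the spread differed between treatments was not tested.

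**Figure D3:**
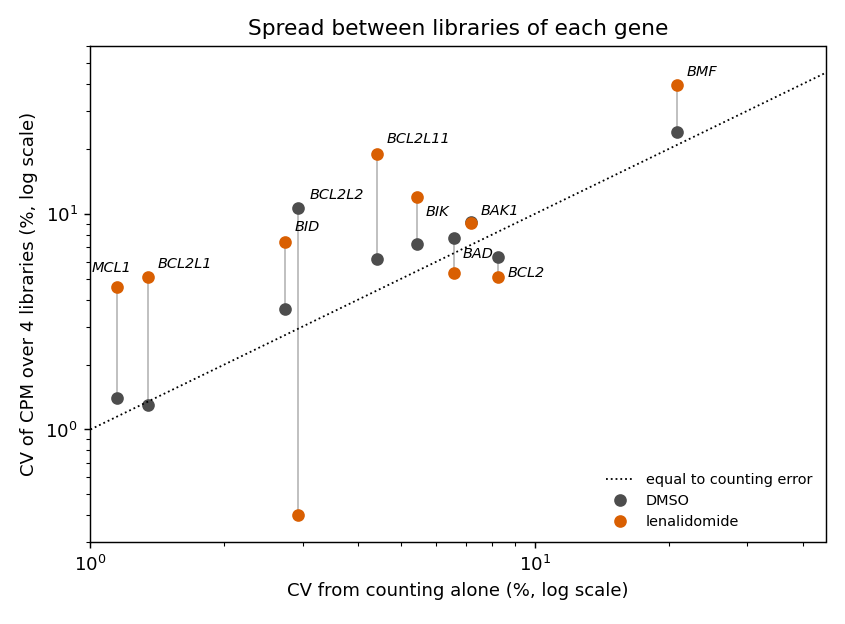
CV of CPM over the 4 libraries of a group (percent, log scale) against the CV that counting alone gives at the mean count of the gene (percent, log scale), with both groups of a gene joined by a line (dark grey DMSO, orange lenalidomide). BCL2L11 in lenalidomide, at 18.9%, lies above the dotted line of equality, and BCL2L2 in lenalidomide, at 0.403%, below it.

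None of the 10 genes passed the threshold between lenalidomide and DMSO. With edgeR's quasi-likelihood method and Benjamini-Hochberg adjustment over 13925 genes, 0 of 10 members had an adjusted p under 0.05, and all 10 adjusted p were 0.999. Over all genes tested the share was 0.0144%, or 2 genes. DESeq2 and the likelihood ratio method of edgeR called 0 members as well. At an unadjusted p under 0.05 there were 0 of 10 members, against 4.18% of all genes. Groups that did not overlap were found in 0 of 10 members, against 2.08% of all genes. The median log2 fold change was -0.046 over the members, 3 higher and 7 lower, and 0.0025 over all genes.

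**Figure D4:**
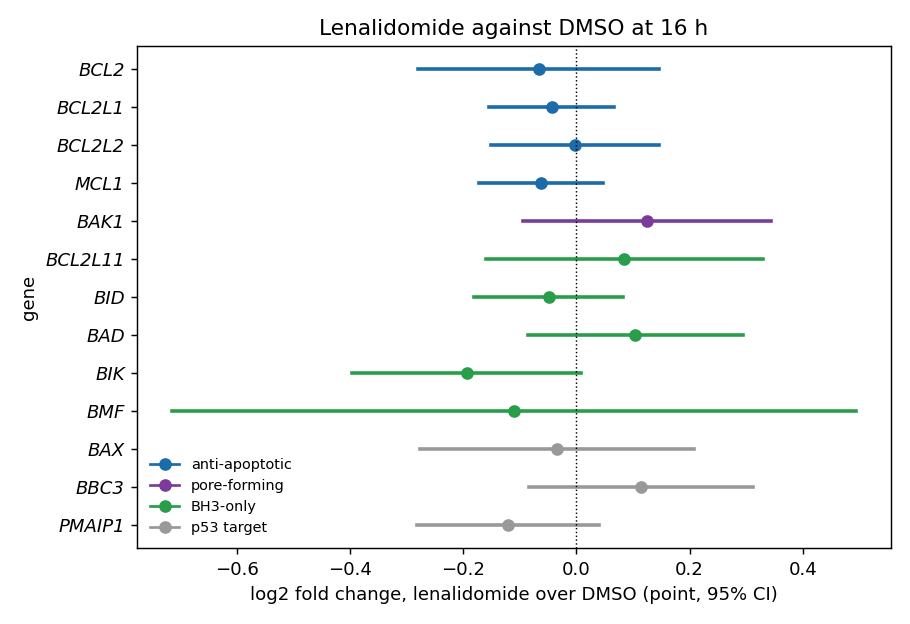
Log2 fold change of lenalidomide over DMSO (points) with 95% confidence intervals (lines) for the 10 genes and for BAX, BBC3 and PMAIP1, coloured by role. Every interval crosses the dotted line at 0, and that of BMF, -0.72 to 0.49, is the widest.

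MCL1 and BCL2L1 had the narrowest intervals. MCL1 was at 227 ± 3.17 CPM in DMSO and 218 ± 10.02 CPM in lenalidomide (SD, n = 4), a log2 fold change of -0.062 with a standard error of 0.051. The 95% confidence interval was -0.17 to 0.048, that is, a change of -11.2% to 3.35%. For BCL2L1 the means were 164 ± 2.12 and 159 ± 8.07 CPM (SD, n = 4), and the log2 fold change was -0.044 (interval -0.15 to 0.067). The log2 fold change of BCL2 was -0.067 (interval -0.28 to 0.15) and that of BCL2L2 was -0.0018 (interval -0.15 to 0.15). Without DMSO replicate 3, the library that stood apart, BCL2L2 was at 0.070. Leaving BMF aside, the intervals of the members reached between 0.11 and 0.25 to either side, where the median over all genes was 0.17.

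BIK had the largest log2 fold change of the 10 in size, -0.19 (standard error 0.094, interval -0.40 to 0.0089), and the smallest p. Its means were 10.6 ± 0.772 CPM in DMSO and 9.29 ± 1.11 CPM in lenalidomide (SD, n = 4). The edgeR quasi-likelihood p was 0.0596 before and 0.999 after Benjamini-Hochberg adjustment, and the exact two-sided permutation p was 0.114. By unadjusted p, BIK ranked at 689 of 13925 genes. With a library left out, the log2 fold change ran from -0.28 to -0.14. It was -0.28 without lenalidomide replicate 2, which lay within the DMSO range, with a quasi-likelihood p (edgeR) of 0.00936 before and 0.456 after adjustment. It was -0.14 without lenalidomide replicate 1, with an unadjusted quasi-likelihood p (edgeR) of 0.177.

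BAK1 was at 5.49 ± 0.501 CPM in DMSO and at 5.98 ± 0.545 CPM in lenalidomide (SD, n = 4), a log2 fold change of 0.13 (interval -0.094 to 0.34). It was lowest, at 0.058, without lenalidomide replicate 3 and highest, at 0.17, without DMSO replicate 4. BAD had a log2 fold change of 0.10 (interval -0.086 to 0.29) and BID of -0.049 (interval -0.18 to 0.083). In these 3 genes the difference between treatments was within the spread between libraries.

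For BCL2L11 the means were 14.8 ± 0.911 CPM in DMSO and 15.7 ± 2.96 CPM in lenalidomide (SD, n = 4), with a log2 fold change of 0.085 (interval -0.16 to 0.33). Single libraries set this value. It was 0.20 without lenalidomide replicate 2, with an edgeR quasi-likelihood p of 0.0274 before and 0.592 after adjustment, and 0.0012 without lenalidomide replicate 4. BMF was at -0.11, and its interval covered a change of -39.1% to 40.9%. At 15 to 35 counts per library, changes of either sign within these bounds remained compatible with the data. The sign for BMF also rested on single libraries. The log2 fold change was 0.063 without DMSO replicate 1. It was 0.0028 when lenalidomide replicate 1 was left out and -0.41 when lenalidomide replicate 4 was.

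Of the p53 targets, PMAIP1 had a log2 fold change of -0.12 (interval -0.28 to 0.039), BBC3 of 0.11 (interval -0.083 to 0.31) and BAX of -0.033 (interval -0.28 to 0.21). Lenalidomide replicate 4, the lowest library for BCL2L1 and MCL1, was also the lowest for PMAIP1, at 86.5 CPM. It was the smallest library and the one with counts for the most genes, 19568, where the others had 16953 to 18476, and the part of these features in the values was not tested. Without it the log2 fold change was -0.048 for PMAIP1, -0.041 for MCL1 and -0.011 for BCL2L1.

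Other genes of the pathway were counted in 3 lists, in each of which edgeR's quasi-likelihood method and DESeq2 called 0 genes. Among 11 other BCL2 family genes, BAX, BBC3 and PMAIP1 included, 8 were tested, 0 had an unadjusted p under 0.05, and the median log2 fold change was -0.0076. BCL2A1, BCL2L10 and BCL2L14 had at most 3 counts in any library and were not tested. BCL2L13, a protein of the outer mitochondrial membrane, was the highest after PMAIP1, at 13.9 ± 0.517 RPKM in DMSO and 13.3 ± 0.546 RPKM in lenalidomide (SD, n = 4).

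All 23 genes of mitochondrial release and caspase activation were tested, 6 higher and 17 lower, with a median log2 fold change of -0.023. VDAC3 and VDAC1, channels for metabolites in the membrane on which the BCL2 family acts, led the list with 131 ± 2.42 and 122 ± 4.17 RPKM in DMSO (SD, n = 4). The unadjusted p was under 0.05 in 3 genes, CASP9 and BIRC3 among them. CASP9, the initiator caspase of the apoptosome, had 3.77, 4.08, 4.59 and 4.04 CPM in DMSO and 5.25, 5.04, 4.65 and 5.62 CPM in lenalidomide. All lenalidomide values of CASP9 were above all DMSO values, the nearest being 4.59 and 4.65 CPM. Its log2 fold change was 0.32 (standard error 0.10, interval 0.10 to 0.54), with an edgeR quasi-likelihood p of 0.00852 before and 0.999 after adjustment. BIRC3, an inhibitor of apoptosis protein of NF-kB signalling, was at 6.92 ± 0.753 CPM in DMSO and 5.88 ± 0.331 CPM in lenalidomide (SD, n = 4), a log2 fold change of -0.24 (interval -0.45 to -0.026). After Benjamini-Hochberg adjustment in edgeR its p was 0.999, from 0.0303 before.

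Of 29 regulators of the members 28 were tested, 15 higher and 13 lower, with a median log2 fold change of 0.0068. YWHAZ, a 14-3-3 protein, and SRSF1, a splicing factor, were highest, at 313 ± 5.57 and 189.6 ± 3.50 RPKM in DMSO (SD, n = 4). FOXO1, a transcription factor upstream of BCL2L11, was the one regulator with an unadjusted p under 0.05. It had 15.8, 14.1, 14.5 and 15.7 CPM in DMSO and 16.7, 15.98, 19.04 and 19.5 CPM in lenalidomide, with no overlap. The log2 fold change was 0.24 (standard error 0.079, interval 0.072 to 0.41), and the edgeR quasi-likelihood p was 0.00856 before and 0.999 after adjustment. FOXO3, named after its values were seen, was at 0.073 (interval -0.054 to 0.20).

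Over the 3 lists, 4 of 59 tested genes had an unadjusted p under 0.05, against the 4.18% of all genes. The groups did not overlap in 5 of 59, against 2.08% of all genes, among them CASP9 and FOXO1, higher in lenalidomide, and BIRC3 and HTRA2, lower. HTRA2, a mitochondrial protease named after its values were seen, had a log2 fold change of -0.12 (interval -0.26 to 0.026).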

How the data were processed

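The authors aligned reads of ScriptSeq v2 total RNA libraries to hg19 with QuasR, at default settings and with no strand setting named, and deposited raw read counts for each UCSC known gene and library beside its exonic width. Per the labels, bcl2fastq 2.17 was used. The read counts of 8 libraries (4 a group) were fitted in edgeR 4.0.16 under R 4.3.3, with filterByExpr (minimum count 10, minimum total 15), TMM factors, glmQLFit, glmQLFTest and Benjamini-Hochberg adjustment over the 13925 genes kept (threshold 0.05). Intervals are at 95%. DESeq2 1.42.0 was one of the alternatives, which also changed scaling, filter, test, length, depth, block and libraries. The code was tested on simulated data. A permutation p of 4 against 4 libraries cannot go below 0.0286. No pair of libraries agreed within sampling noise (chi-square per degree of freedom 5.70 to 26.8, 28 pairs).

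Members and lists were chosen with earlier results of these data known. The genes named are the members, BAX, BBC3, PMAIP1, genes that overlap a member's exons and pseudogenes or readthrough genes of a member, and in each list the 2 with the highest mean RPKM and those with an unadjusted p under 0.05, of which 1 is not reported here. Gene positions and sequences were read from GENCODE v44lift37 and the GRCh37 genome.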

Additional observations from a re-analysis of the deposited data

Results flagged for a closer look

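In 2 of the 44 groups examined, each of 4 libraries and 1 named gene, a library lay far outside the rest, a number close to the 2.2 that chance would give. Both were in lenalidomide replicate 4. BMF had 1.04 CPM there, from 30 counts, and 0.486 to 0.573 CPM in the remaining lenalidomide libraries, from 15 to 19 counts. SRSF1 had 1013 CPM there and 1053 to 1059.6 CPM in the remaining ones.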

How the results depend on the processing

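The members called, and the genes called in each of the 3 lists, stayed at 0 under every alternative run: RLE scaling, DESeq2, likelihood ratio, keeping every gene with at least 1 count, keeping only genes with 10 or more in each library, thinning to the smallest total, the replicate block and each library left out. Over all genes the count of 2 became 9 in DESeq2, 12 by likelihood ratio, 4 when every gene with at least 1 count was kept, and 1 to 2 with a library left out. It was again 2 with a threshold of 0.1. The cause was not tested. The replicate block gave 6. Deviations of same-numbered libraries correlated at 0.052, -0.0075, 0.0032 and 0.31 for replicates 1 to 4. Differently numbered libraries were not compared in this way, so these values cannot decide whether the numbers pair the libraries. The main fit used no block. With the block BIK was at -0.20 and its unadjusted p was 0.0402, adjusted 0.857 (edgeR).

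Of 150 member values under 15 alternatives a gene, 145 had the same sign and the same side of the threshold and 5 changed sign. BCL2L2 was at 0.0026 with the replicate block and ran from -0.043 to 0.070 with a library left out, BMF from -0.41 to 0.063, and BAX from -0.12 to 0.079. BIK had an unadjusted p under 0.05 in 4 of its 15 alternatives, CASP9 and FOXO1 in 15 of 15 and BIRC3 in 11. CASP9, FOXO1 and BIRC3 were named because their unadjusted p was under 0.05. The alternatives reuse the same libraries, so these counts are no separate evidence of a change.

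With the longest annotated transcript as length, the anti-apoptotic share was 74.3% in DMSO and 74.2% in lenalidomide, the BH3-only share 24.05% and 23.9%, and the DMSO order of the 10 genes was the same. Depth limits BMF most. Overlapping exons of other genes, annotated for 7 of the 10 members with BCL2L2 and BCL2L1 among them, are a further limit.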
